A study of Mus musculus with 18 samples.

Results

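Isoforms with an extended 5′ end are mRNAs that the authors' annotation column places in the class of extended 5′ starts, each with a deposited distance of more than 100 nt upstream of an annotated start. All such isoforms on nuclear chromosomes were taken: 225 of the 7123 isoforms in the polysome table (3.16%, 95% Wilson interval 2.78 to 3.59%) and 186 of the 6636 in the decay table (2.80%, 2.43 to 3.23%). They held 27914 of 1601919 counts (1.74%) and 42301 of 3121491 counts (1.36%) of the coverage, ended at 136 and 115 different 3′ ends, and had a median coverage of 25 (range 11 to 6348) and 49.5 (range 21 to 17002) per isoform. Annotated isoforms had medians of 45 and 95. A total of 100 and 138 of the extended isoforms reached a coverage of 30, the minimum set for comparing values.

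The isoforms come from TIF-seq2, a method that reads both ends of 1 mRNA molecule, in wild-type (WT) primary myotubes: myoblasts of the gastrocnemius muscle of female mice were kept for 24 h with 1 µM SCH772984, an ERK inhibitor, and every library shares this treatment. For the polysome table the cells of 2 mice received 100 µg/ml cycloheximide for 5 min and their RNA was separated into free, light (2 to 5 ribosomes) and heavy (6 ribosomes or more) fractions, giving 6 libraries. For the decay table the cells of 3 mice received 7.5 µg/ml actinomycin D and were sampled after 0, 3, 6 and 12 h, giving 12 libraries. Each table pools its libraries into 1 coverage count and 1 value per isoform, TE (translation efficiency) or half-life, so no difference given here has an error between mice, and none could be tested against one. Among isoforms that could be named, 10 of 12 myotube markers were found (Myh8 and Tnnt3 were not) and 0 of 10 markers of myoblasts, fibroblasts, immune and endothelial cells, and a marker without a match may be an isoform without a name.

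The 5′ leader is the part of an mRNA between the cap and the start codon, and ribosomes loaded at the cap scan it for that codon. An AUG upstream of the main start codon can engage scanning ribosomes in a short reading frame and so lower initiation at the main one, to a degree that depends on the bases around it (a purine at position -3 and G at +4 are favourable), on the length of the frame and on reinitiation. A start site further upstream, from another promoter or another position in the same promoter, lengthens the leader and can add such AUGs without changing the protein.

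The sequences that carry the comparison of TE are the first AUGs that an extended leader adds. The first 5 named genes below start upstream with a gained AUG and had either a start compared in both tables or at least 100 counts on both sides of the pair; Atp2a1 and R3hdml also did, but their added leader is shorter than the genomic distance, so their windows have no position here and are not shown. The next 5 are those with the largest negative differences in TE at a coverage of at least 30, and the last, Ino80b, is a pair with higher TE; these were chosen after their values were seen. The gained AUG is in capitals, written as ATG, within up to 27 nt of the leader as deposited, with the later copies described further on removed.
Tecr: ttagaagtggaaATGgatgatctgtct
Smarcd3: atcagtgcaggaATGcggcagccgcgg
Actc1: ctagctccctatATGgccattgctctg
Sco2: ccgcggcgttggATGacggctccgcgc
Myl6: acctcattaataATGtagtgatgtcat
Bloc1s1: accaaccaccagATGccaaaagcagag
Hspb6: tatcccgtcctgATGgtcaccttaacc
Tmem38a: ccctgctgttgATGccgctcgggggt
Tpm1: gaccgccagacgATGgctctgagaggt
Phlda3: tctccttctgctATGccccgggtgtga
Ino80b: acaaacATGgttgccaggcgc
In GRCm39 these windows lie at chr8:84301727-84301753 (minus strand), chr5:24807066-24807092 (minus), chr2:113883511-113883537 (minus), chr15:89258276-89258302 (minus), chr10:128329824-128329850 (minus), chr10:128759427-128759453 (minus), chr7:30252070-30252096 (plus), chr8:73325060-73325085 (plus), chr9:66956838-66956864 (minus), chr1:135693601-135693627 (plus) and chr6:83102155-83102175 (minus). All are in the 5′ leader upstream of the annotated start. The Tecr AUG has a purine at -3 and G at +4 and opens a frame of 10 codons. The Tpm1 AUG has both features and a frame of 6 codons, as has the Ino80b AUG with a frame of 7. In Myl6 the stop codon follows directly, a frame of 1 codon, and in Tmem38a the frame runs for 37 codons. The Actc1 window is that of the start compared in both tables.

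Extended leaders without a gained AUG are represented by 3 genes compared in both tables, with the first base of the mRNA in capitals.
Cdc34: Actccgcagcgcgcagcccggccctgc
Ptms: Agtctctccattcccccgcccggtctc
Cmtm7: Agtccaacttccgcgtgtctagagggc
These first 27 nt lie at chr10:79517627-79517653 (plus strand), chr6:124895095-124895121 (minus) and chr9:114611035-114611061 (minus).

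Where the extended isoforms started was compared with the annotated isoforms of the same chromosome, strand and 3′ end. Such a partner existed for 175 of the 225 polysome isoforms (97 3′ ends) and for 144 of the 186 decay isoforms (79 3′ ends), and the most covered partner was used. Of these, 98 and 77 started upstream of the partner, as the class name says, while 77 and 67 started inside it, downstream of its start. The distance was a median of 313 nt (quartiles 171 and 759) and 449 nt (214 and 1121) for the upstream starts, and 4201 nt and 8678 nt for the inside starts. The deposited distance to an annotated start had a median of 402 nt (range 101 to 140898) and 502.5 nt (range 102 to 140898), and for 84 of 98 and 53 of 77 upstream starts it lay within 100 nt of the distance to the partner. The inside starts are thus extended relative to another annotated start than the one that the most covered isoform at their 3′ end uses. Both kinds of start are given apart where TE, half-life and gained AUGs are compared; where values cover the whole class, both are included. Of the upstream starts, 6 and 8 lay more than 100 kb away, among them Hspb1 (1020901 nt), Acta1 (635142 nt), Eef2 (632641 nt) and Tmsb10 (404149 nt), and whether these are single transcripts was not tested.

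**Figure D1:**
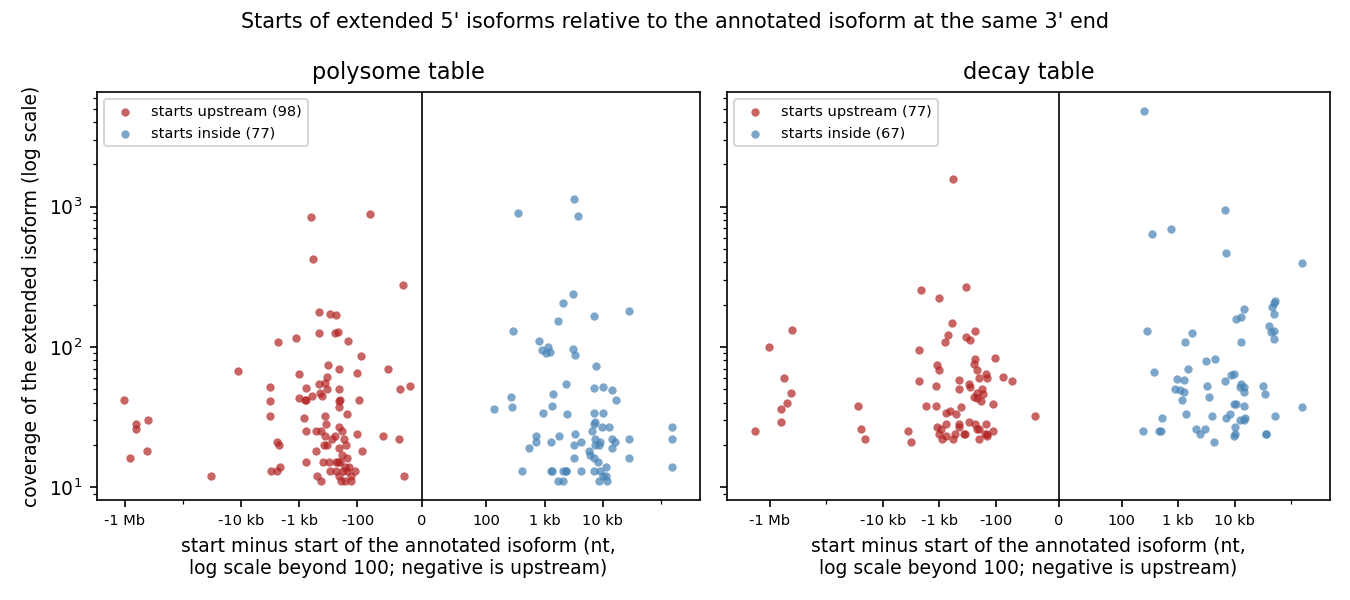
Position of each extended 5′ isoform's start relative to the start of the most covered annotated isoform at the same 3′ end (x axis, nt, logarithmic beyond 100, negative is upstream) against its coverage (y axis, log scale), for the polysome and the decay table. Red points start upstream (98 and 77 isoforms) and blue points start inside (77 and 67), and a group of upstream starts lies beyond 100 kb.

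RefSeq start sites gave a second reference. A start inside a RefSeq promoter window (250 nt before to 50 nt after a gene's start) was found for 56 polysome and 41 decay isoforms, of which 37 and 28 began more than 50 nt before the RefSeq start and 11 and 11 within 10 nt of it. Creb3, an ER-bound transcription factor, and Hspb6, a small heat shock protein of muscle, began exactly at the RefSeq start although they are classed as extended. Ubb, a polyubiquitin gene, began 227 nt before it (offset -227 nt), and Ube2s, a ubiquitin-conjugating enzyme, 12 nt before it (offset -12 nt). A pyrimidine at -1 with a purine at +1, the usual initiator bases, was present at 83.9% (95% Wilson interval 72.2 to 91.3%) and 85.4% (71.6 to 93.1%) of these starts, against 76.3% (74.1 to 78.4%) and 79.2% (77.0 to 81.3%) of annotated starts in such windows. The intervals overlap in both tables.

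Leaders were given for 163 polysome and 120 decay isoforms. Those without one had longer deposited distances (medians 3116 and 4137 nt, against 240 and 219.5 nt with a leader), and in the polysome table all 62 of them also lacked TE. Many deposited leaders held their own first bases again further on: 47 of 163 (28.8%) and 32 of 120 (26.7%), in 10 and 5 of them 3 times in all. The copy was exactly as long as the deposited distance in 43 of the 47 and in all 32. With these later copies removed, the annotated partner's leader was the end of the extended leader for 70 instead of 53 of the 79 upstream starts with a leader in the polysome table, and for 45 instead of 36 of 55 in the decay table. The length added to the leader then equalled the genomic distance for 68 instead of 51, and for 38 instead of 29. All leader values that follow are without the copies; annotated leaders with a distance of at least 15 nt were treated alike (263 of 632 and 217 of 526 held a copy).

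The extended leaders were several times longer than annotated ones, with medians of 392 nt (quartiles 286 and 547) and 350 nt (243 and 520.5) against 114 and 100 nt. Greater length follows in part from the class rule, a distance of more than 100 nt, and the shares with an AUG are not matched for length. An upstream AUG was present in 139 of 163 (85.3%, 95% Wilson interval 79.0 to 89.9%) and 96 of 120 (80.0%, 72.0 to 86.2%), against 39.6% and 33.4% of annotated leaders. Per 100 nt they held 0.984 and 0.999 upstream AUGs, against 0.653 and 0.553 in annotated leaders. GC content was a median of 59.8% and 59.0% against 63.1% and 62.8%. Both kinds of start differed here: upstream starts had a GC content of 62.8% and 62.7% and began with A in 78.5% and 72.7% of leaders, and inside starts had 57.2% and 56.4% and began with A in 61.2% and 43.2%. In 27 of 49 and 14 of 37 inside starts the leader was exactly as long as the deposited distance.

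An upstream AUG was gained over the partner by 45 of 79 upstream starts (57.0%, 95% Wilson interval 46.0 to 67.3%) in the polysome table and 33 of 55 (60%, 46.8 to 71.9%) in the decay table. Among inside starts it was 40 of 49 (81.6%, 68.6 to 90.02%) and 32 of 35 (91.4%, 77.6 to 97.0%). These intervals treat isoforms as independent, although many share a 3′ end and part of a leader. By 3′ end, at least 1 isoform gained an AUG at 32 of 57 and 25 of 42 ends for upstream starts and at 23 of 25 and 18 of 19 for inside starts, and the difference was not tested. For inside starts a gain means only a higher AUG count than in the partner's leader, which lies further upstream. Whether both leaders precede the same main start codon was not tested. Gains were less common over all classes, in the pairs compared below. Among upstream starts, 83 pairs gained an AUG and 285 did not for TE, against 15 and 11 in the class. For half-life the counts were 104 and 321, against 14 and 13. Among inside starts they were 86 and 365 for TE, against 8 and 3. For half-life they were 108 and 437, against 10 and 2. All-class pairs were not matched for distance, so the part of the class rule was not tested. In the 70 polysome pairs whose leaders were nested, at 49 3′ ends, the median added length was 215 nt, and the extensions of 41 pairs held 121 different AUGs when an AUG shared by several starts was counted once. Of these, 110 (90.9%) opened a frame closed by a stop codon within the leader, 102 (84.3%) ended before the annotated start site, and 1 was in frame with the main start codon without a stop. The closed frames had a median of 13 codons (quartiles 7 and 29.75). A purine at -3 preceded 66 of the 121 (54.5%), and 26 (21.5%) had a purine at -3 and G at +4. The decay table gave 65 different AUGs in 25 of 45 nested pairs, of which 62 (95.4%) were closed, again with a median of 13 codons, and 17 (26.2%) had both favourable bases. Summed over pairs, with shared AUGs and shared leaders counted in each pair, the added stretch held 0.896 and 0.645 AUGs per 100 nt, against 0.439 and 0.224 in the annotated leaders it was joined to.

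The share of mRNA that used the extended start was small at most 3′ ends. Summed over the 97 and 79 ends with a partner, extended isoforms took 5.46% (95% Wilson interval 5.37 to 5.56%) and 3.86% (3.81 to 3.92%) of the extended plus annotated coverage, and these intervals cover counting error only. The median share was 9.35% (quartiles 1.67 and 31.9%) and 8.21% (1.19 and 22.6%), and it was under 10% at 50 and 42 ends. Extended isoforms exceeded the annotated ones at 11 of 97 and 8 of 79 ends. By kind of start, the median share was 4.59% and 6.81% for upstream starts (68 and 57 ends, above the annotated coverage at 4 and 4) and 8.68% and 5.58% for inside starts (36 and 28 ends, above it at 7 and 4). The tables list only isoforms above a minimum coverage of 11 and 21, so an annotated isoform below it counts as none.

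At a few ends nearly all coverage belonged to extended isoforms, which in part started inside the most covered annotated isoform and so were shorter than it. Starts upstream of it led in the polysome table at Creb3 (889 against 26 counts, 97.2%, 81 nt upstream) and R3hdml (1332 counts over 5 starts against 42, 96.9%), and in the decay table at R3hdml (1724 against 253, 87.2%). Starts inside it led in the polysome table at an end whose isoforms matched the neighbouring genes Hyal1 and Naa80 (853 against 26, 97.0%) and at an unnamed end on chromosome 7, position 142048336 (1536 against 135, 91.9%). In the decay table inside starts led at S100a6, a calcium-binding protein (4849 against 85, 98.3%), and Atp5j, a subunit of ATP synthase (695 against 25, 96.5%). Ube2m, which conjugates NEDD8, was near equal use in both tables (58.2% and 48.0%), also from an inside start.

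Among the 10 most covered extended isoforms of each table, Ubb (6348 and 17002 counts), S100a6 (4629 and 4849) and Ube2s (2180 and 2350) led in both. Ubb had a TE of 0.000650 and a half-life of 11.5. S100a6 had 0.00119 and 14.3, and Ube2s 0.000985 and 11.5. Ubb and Ube2s had no annotated isoform at the same 3′ end in either table, so nothing was set against them.

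**Figure D2:**
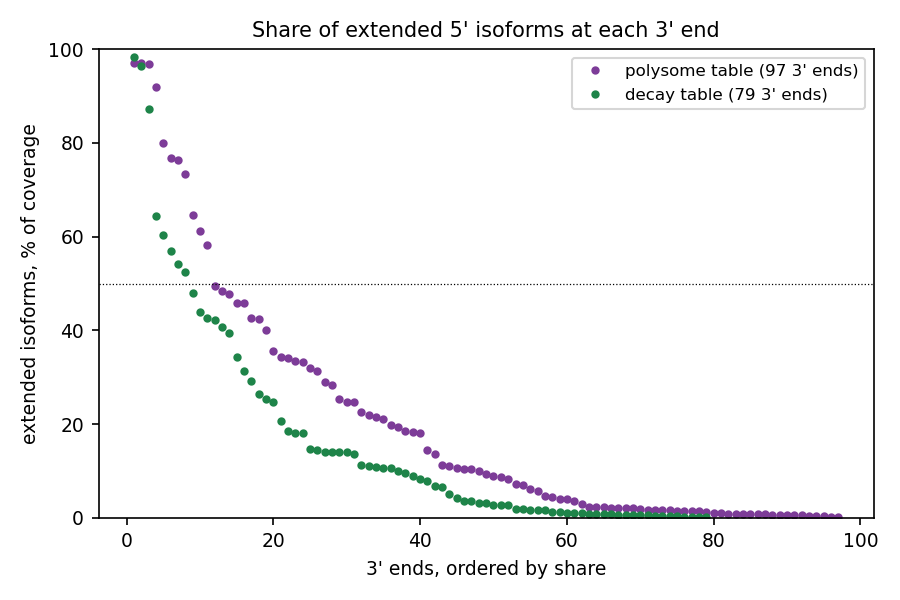
Share of the extended plus annotated coverage held by extended 5′ isoforms at each 3′ end with an annotated partner (y axis, percent), with ends ordered by share (x axis), for the polysome table (97 ends) and the decay table (79 ends). The dotted line marks 50%, passed at 11 and 8 ends, and more ends lie under 10% than above it in both tables.

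TE was then compared at the same 3′ end. For pairs in which both isoforms had a coverage of at least 30, 1 pair per 3′ end was kept, the one with the highest lower coverage, and the difference is log2 of the extended over the annotated isoform on the deposited scale. Starts upstream of the partner gave 26 pairs with a median difference of -0.28 (quartiles -0.94 and 0.22), and their TE had a median of 0.000479 against 0.000793 for the partners. TE was lower in 17 of the 26; over all classes of isoform that start upstream of an annotated one, it was lower in 62% of 368 pairs, with a median of -0.13. TE was at least 1.5-fold lower in 9 of the 26 (20.4% over all classes) and at least 1.5-fold higher in 1 (10.3%). For isoforms outside the class starting under 20 nt from their annotated partner's start, the SD of the difference was 0.31 over 13 pairs. This gives the scale of differences between near-identical mRNAs, and the coverage of these pairs was not compared with that of the 26. Starts inside the partner gave 11 pairs with a median of 0.12, of which 5 were lower (40% over all classes), 3 by at least 1.5-fold (13.2%), while 4 were higher by that much (20.3%).

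The pairs parted by whether the extended leader held more upstream AUGs than the partner's leader, which is called a gain here. With a gained AUG, 15 pairs had a median difference of -0.80 (quartiles -1.20 and -0.21), and 13 of 15 were lower; over all classes 78.3% of 83 such pairs were lower, with a median of -0.38. Without a gained AUG, 11 pairs had a median of 0.18 (quartiles -0.19 and 0.27), and 4 of 11 were lower, against 57.2% of 285 and a median of -0.07. Median distance was 318 nt with and 207 nt without a gained AUG, and the median lower coverage of the pair was 61 and 69. Annotated coverage at these 3′ ends was less alike, from 150 to 10204 counts with a gain and from 90 to 2849 without. The part of this coverage in the difference was not tested. Of 36 isoforms with a leader in both tables, 3 had leaders of another length in each. An unnamed isoform of chromosome 11 among the 15 pairs with a gain was 1 of them. Its leader had 885 nt and 15 upstream AUGs in the polysome table, and 319 nt and 1 in the decay table. Among pairs more than 200 nt apart, 11 of 12 with a gain were lower (median -0.81) and 3 of 8 without (median 0.15). The shares over all classes cover every distance, so whether these counts are particular to the class was not tested. Distance and the number of AUGs grow together, and their parts in the difference were not tested beyond this split.

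**Figure D3:**
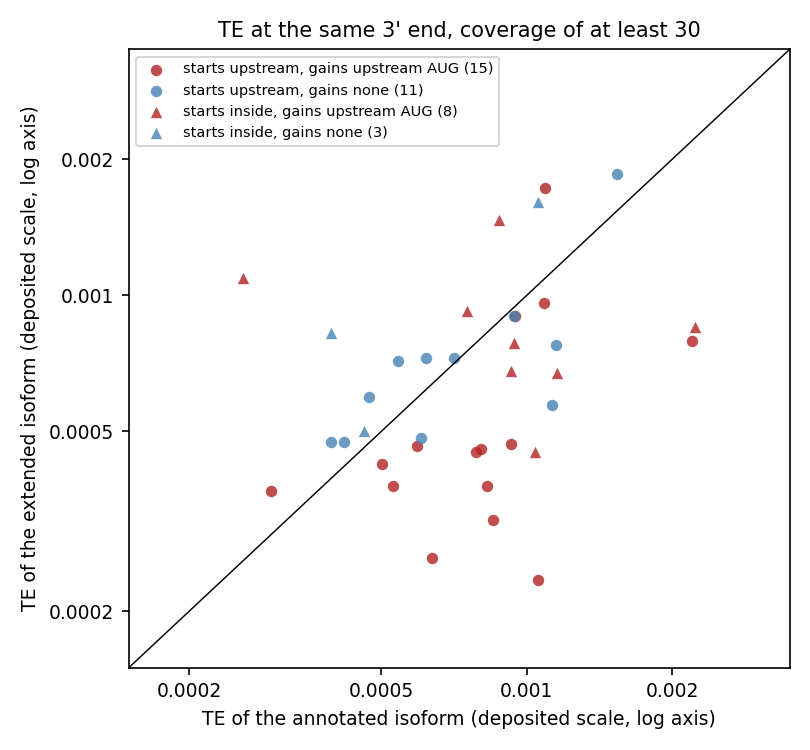
TE of each extended isoform (y axis) against TE of the annotated isoform at the same 3′ end (x axis), both on the deposited scale with log axes, 1 pair per 3′ end and kind of start, coverage of at least 30. Circles start upstream and triangles inside, red points gain an upstream AUG and blue points gain none; 13 of the 15 red circles lie below the diagonal of equal TE, and 4 of the 11 blue ones.

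Tecr, an enzyme of very long chain fatty acid synthesis, had the largest negative difference among the upstream pairs. Its extended isoform (61 counts, leader of 489 nt with 7 upstream AUGs, starting 333 nt upstream) had a TE of 0.000234 and the annotated isoform (6885 counts, leader of 156 nt with 1 AUG) 0.00106, a log2 difference of -2.17. Smarcd3, a subunit of the BAF chromatin remodelling complex in muscle, gained 1 AUG in 236 nt and had 0.000378 against 0.000825 (-1.13, 168 and 569 counts). This was the largest negative difference among pairs with at least 100 counts on both sides. Myl6, a myosin light chain, gained 6 AUGs in 291 nt and had 0.000379 against 0.000529 (-0.48, 173 and 1063 counts). Actc1, cardiac alpha-actin, gained 3 AUGs in 205 nt and had 0.000449 against 0.000784 (-0.80, 70 and 5953 counts); its start 332 nt upstream, the one compared in both tables, had 0.000386 (-1.02, 50 counts). Sco2, which serves cytochrome c oxidase assembly, gained 2 AUGs and had 0.000901 against 0.000944 (-0.07), well within the spread of near-identical pairs.

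Other pairs with a gained AUG and a TE lower by over 1.5-fold were named after their values were seen, and their extended isoforms had under 100 counts. Bloc1s1, a subunit of a lysosome-related complex, had 0.000793 against 0.00220 (-1.47, 33 counts). Hspb6 had 0.000319 against 0.000850 (-1.41, 42 counts, 10 gained AUGs). Tmem38a, a cation channel of the sarcoplasmic reticulum, had 0.000262 against 0.000637 (-1.28, 31 counts, 13 gained AUGs). Tpm1, a tropomyosin, had -0.98 (47 counts) and Phlda3 -0.81 (74 counts). The pairs with a gain in which TE was higher were Atp2a1, the calcium pump of fast muscle (0.000368 against 0.000295, 0.32), and Ino80b, a subunit of a chromatin remodeller (0.00172 against 0.00109, 0.66).

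Without a gained AUG most pairs lay near or above equality. Cdc34, a ubiquitin-conjugating enzyme with 449 nt of added leader and no upstream AUG, had 0.000595 against 0.000471 (0.34, 176 and 183 counts) at 1 3′ end and 0.000717 against 0.000541 (0.41, 126 and 105 counts) at another, with the same leader at both. Both Cdc34 pairs count among the 11 without a gain. Ptms, parathymosin, had 0.04 and Cmtm7, a membrane protein, 0.23. The lower ones were Ccdc12 (-0.98, 43 and 868 counts), Ppt2 (-0.56), Ubtd1 (-0.32) and Nme2 (-0.06), listed after their values were seen. Among inside starts, Prmt1, an arginine methyltransferase, had 0.000673 against 0.00115 (-0.78, 206 and 373 counts), Tnni1, slow skeletal troponin I, -1.21 (37 counts), Ube2m 0.30 (897 and 513 counts), and Bag6 2.08 (52 and 211 counts) with 16 gained AUGs. Inside starts with a gain were lower in 5 of 8 pairs (median -0.35; 53.5% over all classes) and those without in 0 of 3 (36.4%).

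**Figure D4:**
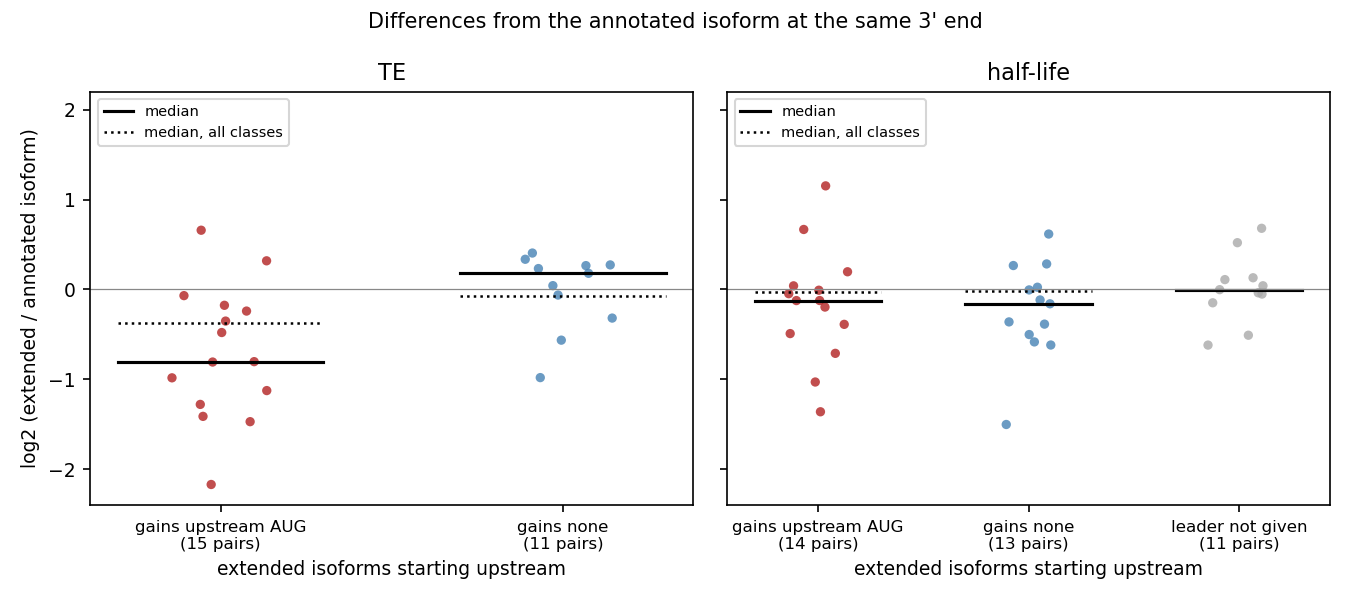
Log2 difference between each extended isoform starting upstream and the annotated isoform at the same 3′ end (y axis), for TE and for half-life, by whether the extended leader gains an upstream AUG, gains none or was not given. Points are pairs with a coverage of at least 30, solid lines their medians and dotted lines the medians of all classes; the TE medians are -0.80 and 0.18, and the half-life medians -0.12, -0.16 and 0.00 (-0.00188 before rounding).

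Half-life was compared in the same way. It is another score than TE, and the sizes of their differences were not tested against each other. The 38 upstream pairs had a median log2 difference of -0.08 (quartiles -0.47 and 0.09). Median half-lives were 10.05 for the extended and 12.4 for the annotated isoforms. A lower half-life was found in 25 of 38 pairs (51.7% of 437 pairs over all classes), one lower by at least 1.5-fold in 6 (11%) and one higher by that much in 4 (9.38%). Near-identical pairs outside the class had an SD of 0.48 over 14 pairs, a scale for single pairs and not for the median. Gaining an upstream AUG did not part the pairs as it did for TE: 10 of 14 with a gain were lower (median -0.12; 52.9% over all classes), 9 of 13 without (median -0.16; 51.7%) and 6 of 11 whose leader was not given. The 18 inside pairs had a median of 0.06, and 7 were lower (47.4%), 2 of them by at least 1.5-fold (10.2%), while 2 were higher by that much (11.8%). Inside starts with a gain were lower in 3 of 10 pairs (46.3%) and those without in 1 of 2 (46.9%).

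Single genes stood apart in both directions. S100a6, at the inside start that carried nearly all its coverage, had a half-life of 14.3 against 8.54 for the annotated isoform (0.74, 4849 and 50 counts). R3hdml had the largest negative difference among pairs with at least 100 counts on both sides, with half-lives of 16.1 (1579 counts) and 17.3 (121 counts) at 2 extended starts against 41.4 for the annotated isoform (104 counts), differences of -1.36 and -1.26. Cdc34 had 9.96 against 28.2 at 1 3′ end (-1.50, 50 and 397 counts) and 8.36 against 11.8 at the other (-0.50, 58 and 402 counts). The annotated values at those ends share the start and differ more from each other than the extended ones do. Both Cdc34 pairs count among the 13 without a gain. Mad2l2, named after its value was seen, had 6.99 against 14.3 (-1.03, 43 and 84 counts). Longer half-lives were listed for Tecr at its most covered extended start (20.3 against 12.8, 0.67, 269 and 21740 counts). The same held for Tmsb10, an actin-binding thymosin (20.1 against 12.5, 0.68, 132 and 6758 counts, start 404149 nt away). Tnnc2, fast troponin C, named after its value was seen, had 27.7 against 12.5 (1.15, 68 and 19059 counts). Acta1, skeletal alpha-actin, had 12.5 for both its extended (222 counts, 1008 nt upstream) and its annotated isoform (42409 counts).

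Several extended starts often shared 1 3′ end, and their values then spread widely. Such ends with at least 3 extended isoforms numbered 17 with 73 isoforms in the polysome table and 9 with 62 in the decay table. Tecr had 7 extended starts with 386 counts in the polysome table. No coverage minimum was applied to the values in this paragraph. The 5 with TE ranged from 0.000172 to 0.00161, and the 4 that gain an AUG were all below the annotated 0.00106. These 4 had 61, 38, 15 and 13 counts, and those with 38 and 13 start inside the partner. The start 1708 nt inside the partner, which gains none, had 0.00161 (152 counts). In the decay table the 10 Tecr starts ranged from 7.25 to 20.3 around the annotated 12.8. Atp2a1 had 18 starts, of which the 17 with a half-life ranged from 5.50 (24 counts) to 15.7 around an annotated 10.5. Actn2, alpha-actinin of the sarcomere, had 12 starts ranging from 7.34 to 12.7 around 9.25. R3hdml had 5 starts with TE from 0.000160 (15 counts) to 0.000715, all below the annotated 0.00117, which itself rests on 26 counts. At Tecr, Atp2a1 and Actn2 many starts lie far inside the annotated isoform, and such isoforms share only part of its body. The 5 R3hdml starts all lie upstream of the annotated start. Isoforms that share a 3′ end are not independent of each other.

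**Figure D5:**
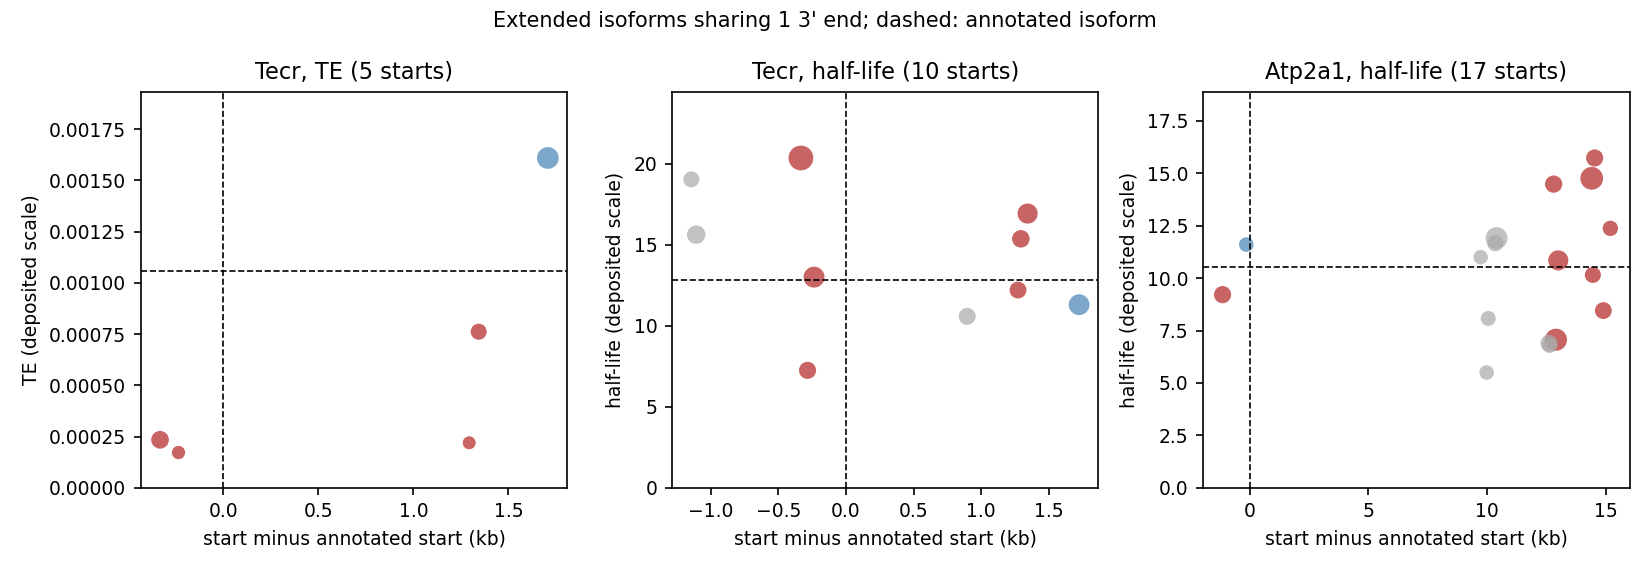
Values of extended isoforms that share 1 3′ end (y axis, deposited scale) by the position of their start relative to the annotated start (x axis, kb, negative is upstream), for Tecr TE (5 starts), Tecr half-life (10) and Atp2a1 half-life (17 with a value). Red points gain an upstream AUG, blue gain none, grey have no leader given, and the area of a point grows with its coverage; dashed lines mark the annotated isoform, and the points lie on both sides of it.

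The tables were set side by side for isoforms with the same ends in both. These were 53 isoforms, 23.6% of the polysome and 28.5% of the decay members but 69.9% and 75.0% of their coverage, and the Spearman correlation of their coverage was 0.42 over the 53. Allowing 10 nt at either end raised the number to 88. Of 12 isoforms with usable pairs in both tables, 9 started upstream, with TE lower in 5 and half-life lower in 6. Cdc34 is counted at both of its 3′ ends among these 9, with the same start. Tecr combined the lowest TE ratio (-2.17) with a longer half-life (0.67), Cdc34 a higher TE (0.34 and 0.41) with a shorter half-life (-0.50 and -1.50), and Smarcd3 a lower TE (-1.13) with a half-life of 9.82 against 9.55 (0.04). Actc1, at the start used for both tables, had -1.02 and -0.12, and Ptms 0.04 and 0.62. Tnni1, an inside start, had -1.21 and 0.12.

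The class begins at a deposited distance just above 100 nt. Isoforms just inside it (101 to 120 nt) had a median TE of 0.000917 over 6 isoforms and a half-life of 9.58 over 13, and annotated isoforms just outside it (81 to 100 nt) 0.000699 over 15 and 11.6 over 13, at a coverage of at least 30. Over the whole class at that coverage the medians were 0.000716 (76 isoforms) and 11.1 (134), against 0.000752 (2186) and 10.8 (2868) for annotated isoforms. Without matching for the 3′ end, the quartile ranges of both groups overlapped for TE (0.000468 to 0.000933 against 0.000527 to 0.00108) and for half-life (8.65 to 14.3 against 9.05 to 12.9).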

How the data were processed

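The authors deposited 1 table per assay with, per isoform, a whole-number coverage count pooled over libraries, an annotation class, distances to annotated ends, UTR sequences and TE or half-life, a derived score. For both, neither formula nor unit was given in the sources used here. Per the submitters' processing notes, the tools were bcl2fastq 2.20.0, cutadapt 1.16, UMI-tools 0.5.4, STAR 2.5.3a, with build GRCm39. Columns with values of a single library number 0, so depth per library is unknown. Values that were missing or below 0 (3 TE and 5 half-lives among the members) were left out of pairs, as were mitochondrial rows.

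Later copies of a leader's first bases (distance of at least 15 nt, matched on up to 50 nt) were removed. Upstream AUGs were ATG triplets in the leader; a gain is a higher number than in the partner's leader. Genes were named by an exact match of at least 20 nt between a leader and a RefSeq promoter window of 1 gene, or from an isoform with the same 3′ end or the same first 30 nt of the 3′ UTR, for 141 and 140 members (83 and 74 genes). RefSeq windows were used for sequence only. Named isoforms were the 10 most covered, the 5 largest differences in each direction with both coverages at least 100, and those paired in both tables; others are said to be chosen after their values were seen. The members, lists and comparisons were chosen with earlier results of these data known. Python 3.11.15 with pandas 2.3.3 was used, and the pairing and copy removal were tested on simulated data.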

Additional observations from a re-analysis of the deposited data

Results flagged for a closer look

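Mitochondrial isoforms of the same class were outside the comparisons. The polysome table listed 4 of them with a summed coverage of 181 counts, and in the decay table there was 1 with 35 counts.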

How the results depend on the processing

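No paired analysis was possible because the deposited tables hold no values per library, so the planned fit with the replicate number as a block, and leaving out single mice, were not run. Of 50 alternatives, 37 were labelled unchanged, 7 moved and 6 reversed. For differences in TE and half-life, unchanged means the same sign and a value within the SD of single near-identical pairs of the main one. That SD is larger than the main medians of -0.24 (TE) and -0.01 (half-life), so for these the label tests little beyond the sign. Shares and distances have no direction. For them unchanged means inside the Wilson interval of the main share, or within a set fold of the main distance. The median TE difference over all starts, -0.24, became 0.12 for inside starts and shrank to -0.06 at a coverage of 60 and -0.07 with the outermost partner. The median half-life difference of -0.01 turned to 0.0253 at a coverage of 60, 0.00119 with all isoforms, 0.00506 with the outermost partner and 0.0618 for inside starts. The difference between medians with and without a gained AUG was -0.64 for TE over all starts, -0.98 for upstream starts, -0.96 for inside starts and -0.69 with leaders as deposited; for half-life it was 0.13, and -0.18 for inside starts. The share gaining an AUG was 57.0% (polysome) and 60% (decay) for upstream starts and 55.6% (decay) for nested leaders. At a coverage of at least 30 the coverage share was 7.16% and 3.95%. Alternatives on the kind of start, the outermost partner and the leaders as deposited were chosen after seeing the data. Most pairs rest on under 100 counts on the thinner side.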
